A study of Caenorhabditis elegans with 2 samples.

Results

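The 129 genes annotated as small nuclear RNA (snRNA) genes on the 6 nuclear chromosomes of Caenorhabditis elegans, among them the spliced leader RNA genes named sls-1 and sls-2, were scored for chromatin immunoprecipitation sequencing (ChIP-seq) of HMBX-1. They were taken from 46890 annotated nuclear genes by their biotype alone, with no use of the ChIP-seq values. HMBX-1 is the worm relative of the human homeobox protein HMBOX1, which binds telomeric DNA. The embryos were of strain OP656, which carries the unc-119(tm4063) III mutation and the transgene wgIs656, a source of HMBX-1 with GFP and FLAG at its C-terminal end. Both biological replicates held whole early embryos of pooled sexes, collected 45 min after bleaching, so all cell types of the embryo were mixed. Both came from this 1 strain and were given 1 treatment. The description names an antibody against GFP and the antibody field names hmbx-1, and the labels do not settle which was used. The tagged protein came from a transgene, and an immunoprecipitation from worms without the tag was not analysed here.

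snRNAs are short nuclear RNAs that assemble with proteins into the spliceosome, where they recognise splice sites and bring the ends of introns together. In nematodes a further class, the spliced leader (SL) RNAs, gives its first bases to the 5′ ends of many messenger RNAs by trans-splicing. SL1 is joined mainly to the first gene of an operon and to single genes, and SL2 mainly to the later genes of operons. In animals most snRNA genes are transcribed by RNA polymerase II and the U6 genes by RNA polymerase III, from short promoters just before the gene that the complex SNAPc binds.

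The leader of an SL RNA can be read from the DNA of its gene. The sequences of 3 sls-2 genes with HMBX-1 regions on chromosome II are set beside 2 sls-2 genes without a thresholded region and 1 sls-1 gene. Capitals mark the first 22 bases of each annotated gene, about where the leader lies. They do not mark its exact start or end, which differ between these genes. All sequences are from the RefSeq copy of assembly WBcel235, 5′ to 3′ on the strand of the gene.
sls-2.1 (chrII:5844865-5844974, plus strand): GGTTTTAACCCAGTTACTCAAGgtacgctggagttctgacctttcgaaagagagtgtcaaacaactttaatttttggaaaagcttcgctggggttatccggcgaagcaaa
sls-2.2 (chrII:5543598-5543707, plus strand): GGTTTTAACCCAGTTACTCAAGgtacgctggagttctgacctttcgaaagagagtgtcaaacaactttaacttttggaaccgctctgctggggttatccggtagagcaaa
sls-2.3 (chrII:5544164-5544273, minus strand): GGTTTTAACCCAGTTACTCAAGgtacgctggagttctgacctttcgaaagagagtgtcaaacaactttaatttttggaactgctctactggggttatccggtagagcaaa
sls-2.8 (chrIII:12250465-12250575, plus strand): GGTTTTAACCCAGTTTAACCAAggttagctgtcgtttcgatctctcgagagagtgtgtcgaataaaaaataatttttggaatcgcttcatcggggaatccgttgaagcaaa
sls-2.12 (chrIV:5261913-5262022, plus strand): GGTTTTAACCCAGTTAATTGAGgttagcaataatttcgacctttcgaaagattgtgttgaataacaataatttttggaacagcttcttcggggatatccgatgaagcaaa
sls-1.2 (chrV:17131064-17131161, minus strand): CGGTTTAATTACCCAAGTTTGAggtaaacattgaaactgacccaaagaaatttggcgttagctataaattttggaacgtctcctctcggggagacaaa
The first 22 bases were identical in 4 of the 18 sls-2 genes, which were sls-2.1, sls-2.2, sls-2.3 and sls-2.4. Over the whole gene these 4 were 90.9 to 97.3% identical to each other and 71.8 to 81.8% identical to the other 14 sls-2 genes.

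The deposited data are lists of regions, each with a summit and a signal value from the authors' peak caller. Each replicate and their pool has a relaxed list, which mixes peaks with background regions, and a thresholded list of 416 nuclear regions was made by comparing replicates. A gene was called when a summit of the thresholded list lay within 250 bp of its body, and its score was the highest signal among such regions. There were 25383 nuclear regions in the relaxed list of replicate 1, 22887 in that of replicate 2 and 29978 in the pooled one. Read numbers are unknown, the signal is comparable only within a list, and the 2 replicates form 1 group, so no test between conditions was possible.

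Of the 129 genes, 10 were called (7.75%, exact 95% binomial interval 3.78 to 13.8). Over all annotated nuclear genes the share called by the same rule was 1.54%, so the share among the members was 5.05 times the background. The interval covers the counting of genes only, and many members share sequence or a region. The share was 23.4% for tRNA genes and 14.2% for snoRNA genes, both above that of the members. It was 4.21% for miRNA genes and 2.29% for genes of the class ncRNA, both below it. The background of all genes includes 15363 piRNA genes with a median length of 21 bp, of which 0.0195% were called. These lower the background, so the ratio of 5.05 depends on the classes counted. A gene of the members' median length, 109 bp, would be called at 0.241% of all genome positions. In the pooled relaxed list 47 members (36.4%) had a region, beside 32.7% of all genes, which is near the background. That background is also a mix, with 13.6% of the piRNA genes and 50.1% of the longer protein-coding genes. Replicate 1 had a region at 42 members (32.6%) beside 30.2% of all genes, and replicate 2 at 48 members (37.2%) beside 27.6%. Both replicates had one at 31 members, and 70 members had no region in any list.

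**Figure D1:**
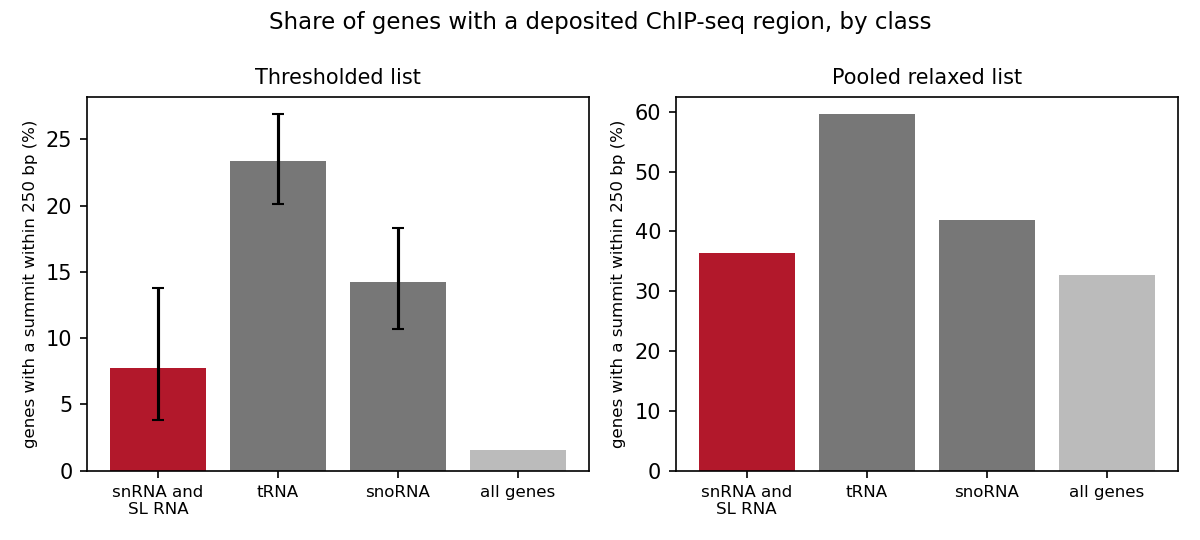
Bars give the percentage of genes with a region summit within 250 bp in the thresholded list (left) and the pooled relaxed list (right) for snRNA and SL RNA genes, tRNA genes, snoRNA genes and all annotated nuclear genes, and error bars on the left are exact 95% binomial intervals. The members stand at 7.75%, between all genes at 1.54% and snoRNA genes at 14.2%, on the left, and at 36.4% beside 32.7% of all genes on the right.

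By name and sequence, the 10 called genes were 5 sls-2 genes, sup-6 and sup-39 with a further annotated entry nested in sup-39, and W05B2.8 and C28A5.7. Their thresholded signals, the highest per gene, ran from 117.8 to 373.5 with a median of 173.8. The same median was 147.7 over all 720 called genes, 144.1 over called tRNA genes and 226.2 over called snoRNA genes. Counted by region, the median was 163.0 at the members and 134.0 over all 416 regions. The 13 thresholded regions at members lay in 8 separate stretches of the genome. Gene bodies were grouped into families where they shared at least 70% of their bases in a global alignment, and each family is called by one of its genes.

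The 4 sls-2 genes with identical first bases were all called. The gene sls-2.4 (chrI:4172206-4172315, plus strand, intergenic) had the highest signal of any member, 373.5 in the thresholded list, 227.3 in replicate 1 and 152.8 in replicate 2, and its region ranked 14 in each of these lists. For sls-2.1 (chrII:5844865-5844974, plus strand, intergenic) the signal was 261.3 in the thresholded list, 175.0 in replicate 1 and 89.1 in replicate 2. At sls-2.2 (chrII:5543598-5543707, plus strand, intergenic) it was 254.3 in the thresholded list, 146.1 in replicate 1 and 112.4 in replicate 2. These 3 genes ranked no lower than 54 of 416 in the thresholded list.

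The gene sls-2.3 (chrII:5544164-5544273, minus strand, intergenic) faces sls-2.2 across a gap of 457 bp, with their 3′ ends toward each other. Its signal was 117.8 in the thresholded list, 82.7 in replicate 1 and 33.9 in replicate 2, the lowest of the called genes in the thresholded list and in replicate 2. That summit lay 216 bp past the 3′ end of sls-2.3 and 241 bp past the 3′ end of sls-2.2, so the region could be counted for either gene. At a distance of 100 bp sls-2.3 was no longer called, nor was sls-2.9.

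The fifth called sls-2 gene, sls-2.9 (chrI:13297877-13297985, plus strand, intergenic), had a signal of 163.7 in the thresholded list, 114.7 in replicate 1 and 67.3 in replicate 2. Its summit lay 233 bp before the gene and nearer to the tRNA gene M01E5.t1 (chrI:13297673-13297745, minus strand), so the region was not closest to a member. The gene sls-2.9 was the 1 called gene among the 11 members with a tRNA, snoRNA or rRNA gene within 250 bp. The other 10 are sls-1 genes near rRNA genes, in sequence that is mostly not unique.

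Of the other 13 sls-2 genes, 7 had a pooled region and 6 had no region in any list. The highest was sls-2.8 on III at 78.0 in the pooled list, 36.0 in replicate 1 and 47.4 in replicate 2. The lowest with a pooled region was sls-2.17 on IV at 31.3. The called and uncalled sls-2 genes did not overlap in pooled signal, a gap given only as a description because the thresholded list was made from the relaxed ones. The windows of sls-2 genes, from 250 bp before to 250 bp after each gene, held 80 to 100% unique sequence, counted as 50-base words that occur once in the genome. The 5 called genes, at 91.4 to 99.3%, lay within that range.

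None of the 12 sls-1 genes had a region in any list. All lie on V in the array that also holds the 5S rRNA genes, and 10 of them are within 177 bp of an rRNA gene. Their windows held at most 31.5% unique 50-base words, with a median of 0, and none of the 20 annotated rRNA genes had a region either. How the authors treated reads that match several places is not given in the sources used here, so the absence of regions at the sls-1 genes could not be read as absence of signal.

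**Figure D2:**
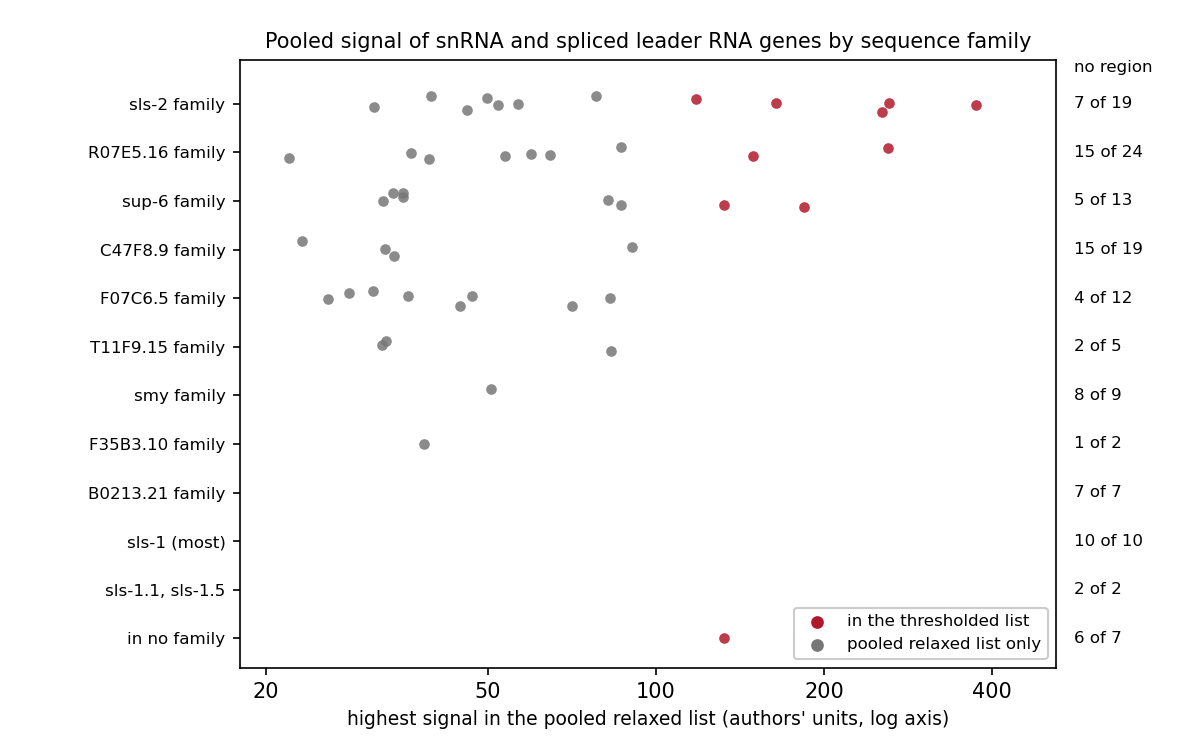
Each point is 1 gene with a pooled relaxed region, placed by its highest signal (log axis, authors' units) and its sequence family, in red where the gene was called from the thresholded list, and the column on the right counts the members with no pooled region. The 5 red sls-2 points run from 117.8 to 373.5, and no gene of the C47F8.9, F07C6.5, T11F9.15, sls-1 or smy families is red.

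The sup-6 family held 13 genes of 156 to 170 bp. U1 snRNA pairs with the 5′ splice site through the bases at its own 5′ end, and sup-6 and sup-39 are U1 genes known from suppressor mutations that restore splicing at altered 5′ splice sites. The word CTTACCT, known from the 5′ end of U1, was found in 12 of the 13 and in 0 of the other 116 members. The genes sup-6 and sup-39 were 97.6% identical, and their sequences are given because they are the called members of this family. Capitals mark CTTACCT and the word TTTTTG near the 3′ end.
sup-6 (chrII:12944803-12944967, minus strand): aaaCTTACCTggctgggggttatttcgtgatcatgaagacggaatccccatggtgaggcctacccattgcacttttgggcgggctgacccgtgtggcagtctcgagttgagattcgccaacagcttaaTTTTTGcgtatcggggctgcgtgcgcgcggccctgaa
sup-39 (chrII:6968394-6968558, minus strand): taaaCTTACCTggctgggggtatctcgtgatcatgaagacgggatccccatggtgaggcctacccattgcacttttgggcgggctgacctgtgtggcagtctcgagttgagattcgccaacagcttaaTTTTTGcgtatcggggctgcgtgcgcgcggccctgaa
The gene sup-6 lies in an intron of F58G1.7 on the same strand. Its signal was 184.0 in the thresholded list, 114.8 in replicate 1 and 56.7 in replicate 2. The gene sup-39 lies in an intron of C15F1.5 on the same strand, and its signal was 132.3 in the thresholded list, 77.4 in replicate 1 and 60.0 in replicate 2.

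Both genes had a pair of thresholded summits that flank the gene body. At sup-6 the summits were 26 bp past the 3′ end, with a signal of 184.0, and 10 bp before the 5′ end, with a signal of 111.3. At sup-39 they were 28 bp past the 3′ end, with 132.3, and 11 bp before the 5′ end, with 101.4. Pairs of thresholded summits were also found at sls-2.4, sls-2.1 and sls-2.2, so a pair is not particular to sup-6 and sup-39. There the weaker summit lay 202, 157 and 241 bp past the 3′ end, in the same order. The regions of each pair overlapped. The entry mir-1831 (chrII:6968530-6968551, minus strand), annotated as a 22 bp snRNA inside sup-39, was called from the same regions and adds no separate evidence. Without it 9 of 128 members were called. Among the other 11 genes of the family, H27M09.6 on I reached 86.4 in the pooled list and T08G5.11 on V reached 82.1. Another 4 had pooled signals of 32.4 to 35.2 and 5 had no pooled region.

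The R07E5.16 family was the largest, with 24 genes of 93 to 108 bp, 21 of them in introns. The called genes were W05B2.8 (chrIII:10989679-10989780, plus strand, in an intron of dhc-4 on the same strand) and C28A5.7 (chrIII:4426854-4426955, minus strand, in an intron of C28A5.6 on the same strand). Their bodies are identical to each other and to 12 others. The signal at W05B2.8 was 260.5 in the thresholded list, 147.6 in replicate 1 and 117.5 in replicate 2. The signal at C28A5.7 was 149.4 in the thresholded list, 64.5 in replicate 1 and 79.9 in replicate 2. No 50-base word inside these bodies is unique, while 89.5% of the words in the W05B2.8 window and 76.5% in the C28A5.7 window are. The gene R07E5.16, whose upstream 80 bases were 86.2% identical to those of C28A5.7, had a pooled signal of 64.7 and was not called. Of the 24 genes, 9 had a pooled region and 14 had no region in any list.

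No gene of the remaining families was called. The C47F8.9 family held 19 genes, 18 of them with the word GTAGTA known from the part of U2 that pairs with the branch site, and 4 had a pooled region. The word was also in 1 of the other 110 members, W07G1.24. Its highest, F08G2.11 on II, reached 90.7 in the pooled list, 48.3 in replicate 1 and 39.8 in replicate 2, the highest pooled signal of any uncalled member. The F07C6.5 family held 12 genes, 11 of them with the word CTTTTAC known from the loop of U5 that holds exon ends, and 8 had a pooled region. The word was also in 2 of the other 117 members, sls-2.10 and sls-2.11. The highest of the family were F38E11.11 at 82.6 and F38E11.10 at 70.8, both on IV. The T11F9.15 family held 5 genes on V, of which 3 had a pooled region with C52E4.8 the highest at 83.2. A pooled region was found at 1 of the 9 genes of the smy family, nematode RNAs linked to SL trans-splicing, namely smy-12 at 50.7. The 7 genes of the B0213.21 family had no region in any list although their windows were 100% unique. A count of 0 called allows a share of up to 15.8% in the C47F8.9 family and 25% in the F07C6.5 family, and 4 C47F8.9 genes had windows under 50% unique. These limits take genes as independent, although 7 C47F8.9 bodies are identical.

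The genes just outside the threshold had a pooled signal of 59.7 to 90.7. They were F08G2.11, F54D8.7, H27M09.6, C52E4.8, F38E11.11, T08G5.11, sls-2.8, F38E11.10, R07E5.16 and Y9C9A.111, from 6 families. The lowest called gene, sls-2.3, stood at 117.8, and the lowest signal in the thresholded list was 95.3. Over the 37 uncalled members with a pooled region the signal per gene ran from 22 to 90.7 with a median of 39.6. The same median was 34.3 over all genes with a pooled region, called genes included. Over single regions of the pooled list the median was 30.7, and 4 of the 37 were below that value. The rule for calling used these lists, so the gap between called and uncalled genes is given as a description.

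The members' signals were compared between the replicates. Over the 31 genes with a region in both replicate lists, Spearman's rho between the 2 signals was 0.82. These genes include entries that share a region, and each list is limited to the regions its own library passed. In replicate 1 the called genes ran from 64.5 to 227.3 and no uncalled gene exceeded 50.4. In replicate 2 the called genes ran from 33.9 to 152.8 and the uncalled reached 48.3, so the groups overlapped there through sls-2.3 alone. All 10 called genes were within the 416 highest regions of replicate 1, and 9 were within the 416 highest of replicate 2, where sls-2.3 ranked 910. The thresholded list was made by comparing the replicates, so high signals of called genes in both follow from the rule and are no separate check. The uncalled genes F54D8.7, sls-2.8 and T08G5.11 were also in the highest 416 of replicate 2.

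**Figure D3:**
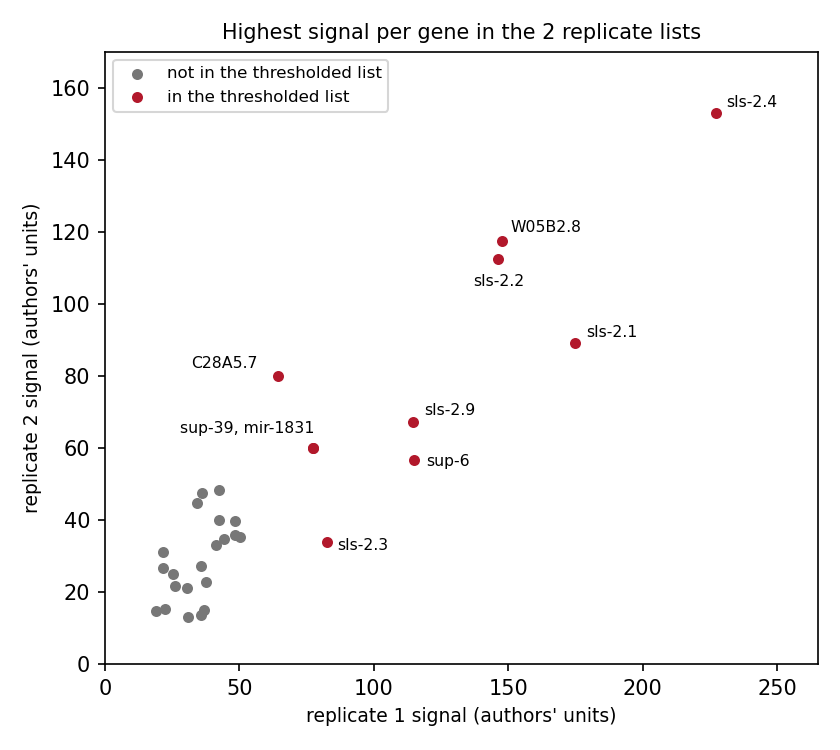
Each point is 1 of the 31 genes with a region in both replicates, placed by its highest signal in replicate 1 (horizontal axis) and replicate 2 (vertical axis) in the authors' units, in red where the gene was called. The uncalled genes reach at most 50.4 in replicate 1 and 48.3 in replicate 2, and sls-2.3 is the called gene that lies within the uncalled range of replicate 2. Calling drew on both replicates, so the split by color is a description.

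The summits of highest signal lay mostly in the gene or past its 3′ end. Positions were counted from the first base of the gene, on its strand, with that base as 0. Of the 10 called genes, 3 had their highest summit inside the body, 6 past the 3′ end and 1 before the 5′ end, with a median position of 146. Inside the gene were sls-2.4 at 98, sls-2.1 at 59 and C28A5.7 at 71. Past the 3′ end were W05B2.8 at 151, sls-2.2 at 141, sup-6 at 190, sup-39 at 192, its nested entry mir-1831 at 185 and sls-2.3 at 325. Among these, sup-39 and mir-1831 share 1 summit, and that of sls-2.3 lay 216 bp past its 3′ end. The 1 summit before its gene, at -233, was that of sls-2.9 nearest to the tRNA gene.

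The position was less certain than its value implies. Summits in the 2 replicates lay 2 to 145 bp apart at the called genes, with a median of 58 bp, and the median position was 147.5 in replicate 1 and 93 in replicate 2. Taking the nearest summit of each gene in place of the highest moved the median to 65. It also changed the side at sup-6, sup-39 and mir-1831, where the nearest summit lay 10, 11 and 18 bp before the 5′ end. Most of these regions were deposited at one fixed width, with a median of 490 bp over the list, several times the length of a member. The 37 uncalled genes with a pooled region had 7 summits before the gene, 12 inside it and 18 past it.

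**Figure D4:**
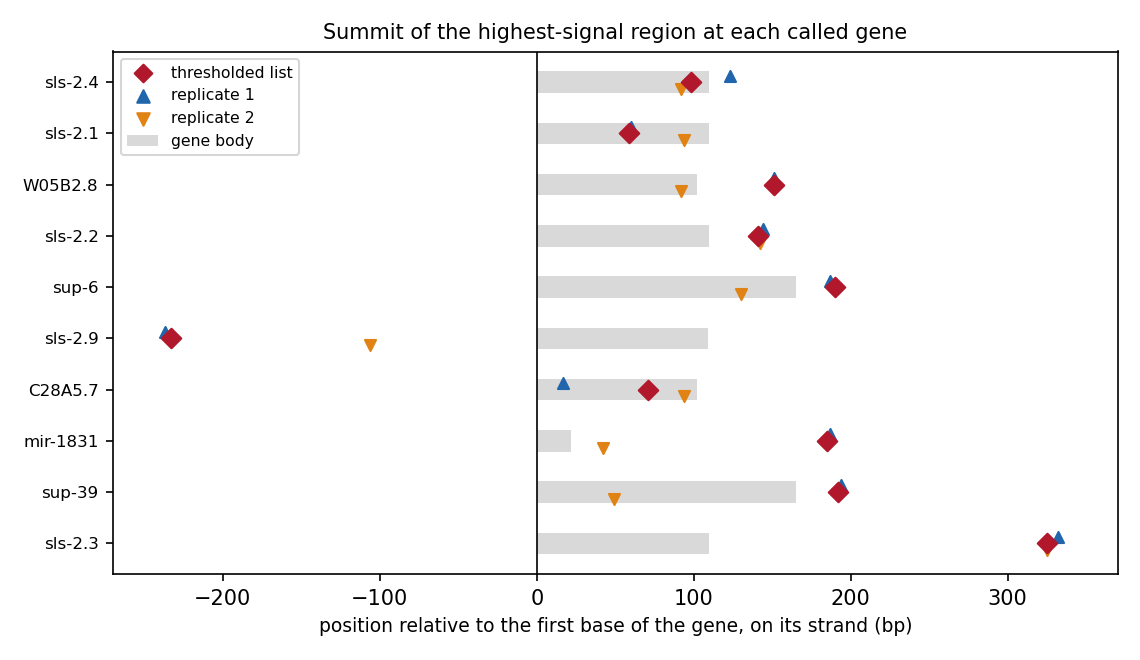
For each called gene, ordered by thresholded signal, the grey bar is the gene body and the symbols are the summits of the highest region in the thresholded list (diamond), replicate 1 (upward triangle) and replicate 2 (downward triangle), in bp from the first base of the gene. All summits but those of sls-2.9 lie at or after the first base, from 17 for C28A5.7 in replicate 1 to 332 for sls-2.3 in replicate 1.

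The 100 bases before each gene were compared for shared words. The words were read from the upstream sequence of these genes, so their share among the members is a description. Element A, CGNAACCC, where N is any base, was found on the gene's strand before 46 members (35.7%) and before 0.350% of all genes. Element B, GTCNGNACAC, was found before 42 members (32.6%) and before 0.134% of all genes. Element C, TATATAA, was found before 18 members (14.0%) and before 2.43% of all genes. Element D, CTCGAAA, was found before 4 members (3.1%) and before 1.01% of all genes. On either strand the shares over all genes were 0.478%, 0.181%, 3.52% and 2.05% in the same order. None of the 4 words contains another. The first base of A had its median position at -61, and that of B at -46. At least 1 of A, B and C stood before 90 of the 129 members.

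The upstream 80 bases of the called genes on II and III show how the elements were arranged, with each match to A, B, C or D in capitals.
sls-2.1 (chrII:5844785-5844864, plus strand): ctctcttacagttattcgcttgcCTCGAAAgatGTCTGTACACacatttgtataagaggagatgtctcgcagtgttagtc
sls-2.2 (chrII:5543518-5543597, plus strand): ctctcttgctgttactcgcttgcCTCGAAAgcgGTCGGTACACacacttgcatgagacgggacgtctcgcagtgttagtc
sls-2.3 (chrII:5544274-5544353, minus strand): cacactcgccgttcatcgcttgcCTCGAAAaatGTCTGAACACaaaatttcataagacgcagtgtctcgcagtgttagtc
sup-6 (chrII:12944968-12945047, minus strand): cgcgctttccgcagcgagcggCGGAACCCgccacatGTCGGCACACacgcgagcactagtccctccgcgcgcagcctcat
sup-39 (chrII:6968559-6968638, minus strand): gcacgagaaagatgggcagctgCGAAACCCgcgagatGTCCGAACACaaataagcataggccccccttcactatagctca
W05B2.8 (chrIII:10989599-10989678, plus strand): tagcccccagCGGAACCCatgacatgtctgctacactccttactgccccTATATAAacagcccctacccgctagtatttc
C28A5.7 (chrIII:4426956-4427035, minus strand): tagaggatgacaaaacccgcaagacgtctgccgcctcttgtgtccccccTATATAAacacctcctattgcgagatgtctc
In the 3 sls-2 genes D was followed by B, starting at -57 and -47. In sup-6 A started at -59 and B at -44, and in sup-39 they started at -58 and -43. W05B2.8 had A at -70 and C at -31, and C28A5.7 had C at -31 with no match to A.

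Uncalled genes of the same and other families carried the same words, as the following 80-base stretches show.
sls-2.8 (chrIII:12250385-12250464, plus strand): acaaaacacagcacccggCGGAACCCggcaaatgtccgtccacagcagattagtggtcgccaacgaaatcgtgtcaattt
sls-2.14 (chrIII:11090524-11090603, minus strand): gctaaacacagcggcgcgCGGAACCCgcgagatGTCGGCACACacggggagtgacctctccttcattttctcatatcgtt
T08G5.11 (chrV:14028636-14028715, minus strand): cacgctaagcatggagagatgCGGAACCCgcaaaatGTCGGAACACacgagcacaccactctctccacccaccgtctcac
F08G2.11 (chrII:13852707-13852786, plus strand): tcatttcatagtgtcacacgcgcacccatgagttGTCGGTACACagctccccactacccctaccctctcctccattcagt
R07E5.16 (chrIII:4414105-4414184, plus strand): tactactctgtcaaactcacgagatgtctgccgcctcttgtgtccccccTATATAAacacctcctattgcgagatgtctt
F07C6.5 (chrIV:12795504-12795583, plus strand): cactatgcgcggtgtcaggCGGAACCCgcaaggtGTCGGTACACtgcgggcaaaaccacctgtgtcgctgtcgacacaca
T08G5.11, a sup-6 family gene with a pooled signal of 82.1, had A and B in the same order as sup-6. The gene sls-2.14, with no region in any list, also had both. F07C6.5 carried A and B and had a pooled signal of 46.9.

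Element B was found before 8 of the 10 called genes and before 34 of the 119 uncalled genes. The exceptions among the called genes were W05B2.8 and C28A5.7, which have C. Of the 42 genes with B, 19% were called and 45.2% had a pooled region. Of the 87 without B, 2.3% were called and 32.2% had a pooled region. These counts are not independent, since the 8 include both entries at the sup-39 locus and 5 sls-2 genes of related sequence. In the C47F8.9 family B preceded 18 of 19 genes and none was called. Element A was found before 4 called and 42 uncalled genes. Element D was found only before sls-2.1, sls-2.2, sls-2.3 and sls-2.4 among the 129 members, all of which were called, and before 468 genes that are not members. The upstream 80 bases of these 4 were 70 to 85% identical. The words were read from the members with earlier results of these data known, so the match of D to calling adds no separate evidence.

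**Figure D5:**
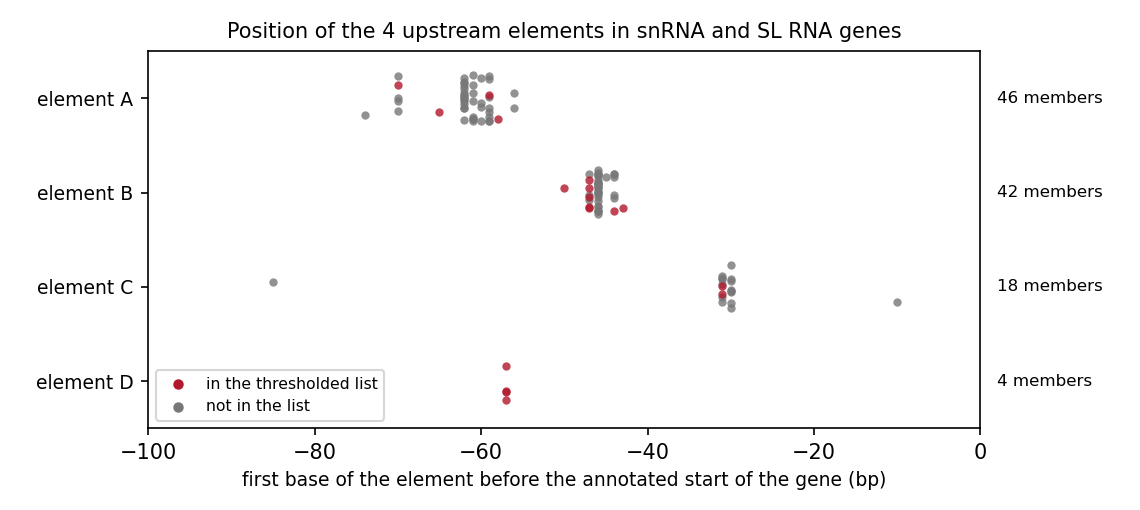
Each point is 1 member with the element in the 100 bases before its annotated start, placed by the first base of the element in bp from the start (horizontal axis) and by element (rows A to D), in red where the gene was called. Element A gathers near -61, B near -46 and C near -31, and the 4 genes with D, which are related in sequence, are all red at -57. The words were chosen with earlier results of these data known.

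The called genes were spread unevenly over the chromosomes. All 10 were among the 45 members on I, II and III (22.2%), with 2 on I, 6 on II and 2 on III. None of the 84 members on IV, V and X was called. This grouping follows the counts themselves, since it sets the chromosomes with a called gene against those without one. The contrast is therefore a description only. A count of 0 allows a share of up to 7.32% for the 41 members on IV and 7.5% for the 40 on V, and sets no limit for the 3 on X. Over all annotated genes 2.67% were called on I to III and 1.09% on IV, V and X, and tRNA genes were called at 24.1% and 23.1%. These joint shares hide differences between chromosomes. On IV, V and X taken singly, tRNA genes were called at 15.5%, 15.4% and 27.2%, and all genes at 0.472%, 1.08% and 3.11%. X held 276 of the 425 tRNA genes on these chromosomes but 3 of the 84 members. Members on IV, V and X had pooled regions in 22 cases (26.2%), beside 25 of 45 (55.6%) on I to III. Windows under 50% unique were found at 14 of the 84 genes and at 4 of the 45. Restricted to genes with at least 50% unique words, the counts were 0 of 70 and 10 of 41. The groups differ in makeup, since sls-2 family genes numbered 6 on IV, V and X and 13 on I to III, and sup-6 family genes numbered 9 and 4. The part of family, position and local sequence in this difference was not tested.

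Intronic and intergenic members showed less contrast. An intron of a protein-coding gene held 56 members, of which 5 were called and 24 had a pooled region. Of the 62 intergenic members, 5 were called and 22 had a pooled region. Another 11 overlapped an exon, and none of these was called. An annotated non-coding RNA gene overlapped 38 members on the opposite strand, of which 6 were called and 21 had a pooled region, beside 4 and 26 of the 91 without one. ChIP-seq does not separate strands, so signal from a member and from its antisense partner cannot be told apart.

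The protein genes of snRNA biology were read from a list of 81 names, 74 of which were found in the annotation, and were scored by summits within 500 bp of the gene start. Of the 74, 4 were called (5.41%), beside 1.04% of all protein-coding genes. The list was chosen with earlier results of these data known, so its shares are descriptions only. The gene snr-1, for an Sm protein of the ring that binds snRNAs, had a summit 468 bp from its start that scored 299.3 in the thresholded list, 174.9 in replicate 1 and 122.8 in replicate 2. The gene rsr-1, for a splicing coactivator, had 135.8, with 67.0 in replicate 1 and 70.1 in replicate 2. The gene sftb-6, for a subunit of the U2 particle protein SF3b, had 125.3, with 82.5 in replicate 1 and 35.2 in replicate 2. The gene ints-8, for a subunit of Integrator, the complex that cuts snRNA 3′ ends, had 95.8, with 51.4 in replicate 1 and 48.8 in replicate 2.

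The first 3 summits lay nearer to another gene's start, which was snx-13 for snr-1, sri-5 for rsr-1 and luc-7L3 for sftb-6. Only ints-8, with its summit 91 bp from the start, was itself the nearest start among the 4. Its region ranked 411 of 416 in the thresholded list. None of the 12 genes found for SNAPc and snRNA transcription and none of the 8 for the SL particle and snRNA maturation was called, counts that allow shares of up to 25% and 37.5%. A pooled region within 500 bp of the start was found at 45 of the 74 (60.8%), beside 32.2% of all protein-coding genes.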

How the data were processed

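ChIP-seq of HMBX-1 was measured in 2 biological replicates of 1 group. The signal and the −log10 q value per region are the authors' own, as deposited. Per the file headers and notes, relaxed lists of peaks and background were made per replicate and for the pool, against a shared control, and the thresholded list was made by the irreproducible discovery rate procedure. What aligner and caller were used, at what read depth, and how reads matching several places were treated is not given in the sources used here. The −log10 q value reached 2.24 in the thresholded list and was not used for any result. The ce11 lists were used, since their chromosome lengths equal those of WBcel235, and the ce10 lists were not used. No column of other samples was present (0 columns).

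Genes came from Ensembl release 115, and all 129 members were matched by identifier to RefSeq symbols. Copies share 94 Ensembl names, so RefSeq symbols are printed. Summits within 250 bp of a gene body were assigned to it, and several genes could share one. Families joined gene bodies of at least 70% identity (Biopython 1.88, global alignment). Uniqueness counted 50-base words that occur once in the nuclear and mitochondrial genome, on either strand. Analysis used Python 3.11.15, NumPy, pandas and SciPy, and the steps were tested on simulated data. Intervals are exact 95% binomial, and the limit for a count of 0 is 3 counts. Both take genes as independent, which related copies are not, and neither measures spread between replicates. All results are descriptions without a test. The genes named were every called member, the 10 uncalled members of highest pooled signal, the sls groups and the called pathway genes, and other genes were named after their values were seen. The members, the lists and the words were chosen with earlier results of these data known. Alternatives changed the distance, the list, the replicate and the set of members. Sequences are printed for a few members, and the gene bodies of the R07E5.16 family are not reported here.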

Additional observations from a re-analysis of the deposited data

How the results depend on the processing

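The count of 10 called genes ran from 7 to 12 under the alternatives tried. It was 8 at 100 bp, 10 at 500 and 1000 bp, 10 by overlap of region and gene body, 7 with only the 50% of thresholded regions of highest signal, 8 with each region given to its nearest small RNA gene, and 10 with the highest pooled regions. To leave out a replicate, the 416 regions of highest signal in the other replicate's relaxed list stood in for the thresholded list. This gave 12 without replicate 1, of which 9 were among the 10, and 10 without replicate 2. The pooled count of 47 ran from 40 at 100 bp to 68 at 1000 bp, where 54.6% of all genes had a region. It was 48 in the relaxed list of replicate 2 alone and 42 in that of replicate 1 alone, both lists with fewer regions than the pooled one. Values that moved were the median thresholded signal, from 173.8 to 219.1 at 100 bp, 219.1 at 500 bp and 163.0 counted by region, the median summit position, from 146 to 65 with the nearest summit, and the pathway count, from 4 to 2 at 250 bp. The loss at 250 bp followed from the distances of the snr-1 and rsr-1 summits. Counts by family did not change at 500 bp, nor, in a check chosen after seeing the data, with families joined at 80% identity, where the 3 families with called genes held 18, 23 and 13 members. Also chosen after seeing the data, overlapping regions counted once gave 8 stretches. No paired analysis was possible because the 2 replicates form 1 group.

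Read depth, mapping of repeated sequence and the absence of an analysed mock immunoprecipitation limit what the lists can show. A gene without a region is not shown to lack HMBX-1, least of all where windows lack unique sequence, as at the sls-1 genes. Many members share sequence and some share a region, so they are not independent.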
